A study of Homo sapiens with 4 samples.

Results

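Long noncoding RNAs (lncRNAs) linked to the pluripotent state were followed in Elf1 cells, a naïve human embryonic stem cell (ESC) line, grown in 2-D and in 3-D culture. The genes were chosen by name, ESRG, LINC-ROR, LNCPRESS1, LINC00678, LINC00458 and MIR302CHG, and all 6 were found by Ensembl identifier among the 60564 genes of the count tables. By the labels, the 2-D grown cells adhered to plastic plates coated with Matrigel, while the study's methods describe routine growth on mouse feeder cells and a move to feeder-free Matrigel before encapsulation, and the 3-D grown cells were encapsulated as single cells in self-assembling PEG-8-SH/PEG-8-Acr scaffolds and kept there for 21 days. Both conditions used the same ESC expansion medium, and each had 2 libraries from independent biological replicates of this single line, so that p-values measure the spread between these replicates only. Total RNA was depleted of ribosomal RNA, sequenced with paired ends and counted per gene. The question is whether these transcripts were at other levels in the scaffolds than on the plates.

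LncRNAs are transcripts that are not translated into a long protein, and several of them are transcribed almost only in pluripotent cells, where OCT4 (POU5F1), SOX2 and NANOG bind near their genes. They act through what they bind. ESRG and LINC-ROR arose from copies of the endogenous retrovirus HERVH, whose long terminal repeats serve as promoters in human ESCs. ESRG has been reported to bind the replication helicase subunit MCM2. LINC-ROR has been described as a decoy for miR-145, a microRNA that represses pluripotency factors. LNCPRESS1 keeps the deacetylase SIRT6 from chromatin. LINC00458 has been reported to bind SMAD2 and SMAD3, and MIR302CHG is the primary transcript from which the microRNAs miR-302 and miR-367 are cut.

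The microRNAs of MIR302CHG are shown first because they are what this transcript is known for. Their 5 precursors lie within the gene on chromosome 4, and 4 of the 5 mature 3p arms share 1 seed, the bases 2 to 8 that pair with a target, printed here in capitals (RefSeq, GRCh38.p14, 5′ to 3′, minus strand).
hsa-miR-302a-3p: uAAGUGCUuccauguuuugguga
hsa-miR-302b-3p: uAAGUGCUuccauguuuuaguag
hsa-miR-302c-3p: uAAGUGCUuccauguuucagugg
hsa-miR-302d-3p: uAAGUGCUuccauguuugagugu
hsa-miR-367-3p: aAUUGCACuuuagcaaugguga
The AAGUGCU seed was shared by 12 of the 2370 mature microRNA names in the table and the AUUGCAC seed of miR-367-3p by 6. Mature microRNAs are too short for these libraries, so their levels were not measured.

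The RefSeq promoter of MIR302CHG at chr4:112650002-112650301 (GRCh38.p14, minus strand, 250 bases before the start and 50 after it) is shown because the transcript differed between the conditions, with an exact match to the octamer ATGCAAAT, the motif bound by OCT factors, in capitals.
MIR302CHG promoter: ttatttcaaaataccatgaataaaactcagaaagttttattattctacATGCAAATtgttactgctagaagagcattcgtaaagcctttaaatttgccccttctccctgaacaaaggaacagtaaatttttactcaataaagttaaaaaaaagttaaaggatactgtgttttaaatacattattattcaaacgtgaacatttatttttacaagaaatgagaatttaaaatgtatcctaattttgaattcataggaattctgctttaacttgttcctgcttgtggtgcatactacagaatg
The match began at position −202 relative to the start, and 623 of the 35116 promoters in the table (1.77%) held it on either strand. This promoter had a GC content of 28%, against a median of 58.7% over all promoters. A second listed MIR302CHG promoter held TATAAA at position −29 relative to its start, a motif found in 11.5% of promoters. The LNCPRESS1 promoter, the other one that could be matched, had a GC content of 53.3% and held GGGCGG, a GC box present in 45% of promoters. Of SOX motifs only the exact letters CATTGT were searched, on either strand. They were present in 10.8% of promoters and not found in these windows. Other spellings of the SOX motif were not searched, so these windows may hold one. A match of letters is a description and does not show that a factor was bound.

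Totals of counted fragments were 33833778 and 30114220 in 2-D and 21154409 and 18276147 in 3-D, and the 6 lncRNAs had between 1293 and 56572 counts in a library. Levels are counts scaled to a common library size after TMM normalization (CPM), errors after ± are SDs over the 2 replicates, and changes are log2 ratios, 3-D over 2-D, with their standard errors (SE). The test was edgeR's quasi-likelihood test, and a gene is called at an adjusted p (Benjamini-Hochberg, BH) below 0.05 over all 22555 genes that passed the filter on low counts. All 6 lncRNAs passed the filter. Of all tested genes 7.90% were called, 4.54% higher and 3.36% lower in 3-D, and of the 5111 tested lncRNA genes 3.80% were called. In bulk RNA, fewer cells that express a gene and less of its RNA per cell cannot be told apart.

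Of the 6 lncRNAs, 3 were called. ESRG and LINC00458 were higher and MIR302CHG was lower in 3-D grown cells, while LINC-ROR, LINC00678 and LNCPRESS1 did not pass the test. The libraries of the conditions did not overlap for 5 of the 6, 4 of them higher in 3-D, which was also the case for 50.5% of all tested genes, so that this count by itself is no result about the lncRNAs. The median log2 fold change of the 6 was 0.10, beside 0.000 over all tested genes and −0.025 over all tested lncRNA genes. The changes were small in size. ESRG and MIR302CHG moved by more than the median absolute log2 fold change of the tested lncRNAs (0.20), and the other 4 by less.

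**Figure D1:**
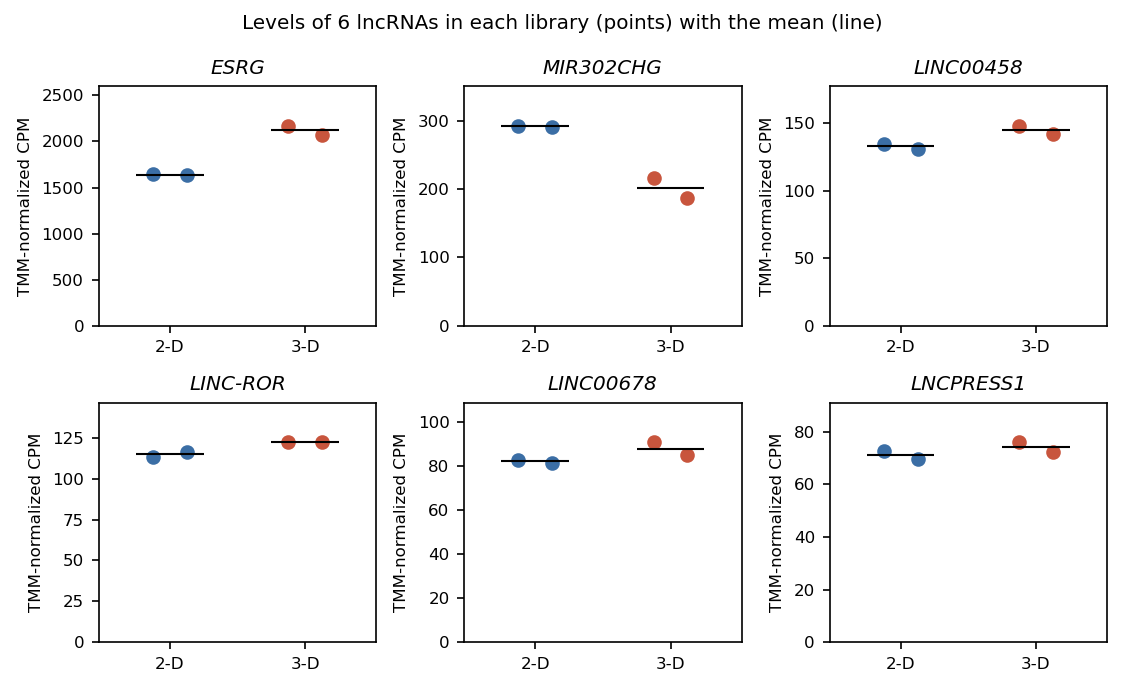
TMM-normalized CPM (y axis, from 0, a scale per panel) of each lncRNA in the 2-D libraries (blue) and the 3-D libraries (red), with the mean of each condition as a line. ESRG lay near 1640.2 CPM in 2-D and 2121 in 3-D, MIR302CHG fell from 292 to 201, and the panels of the other 4 show shifts of under 10%.

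ESRG, the retrovirus-derived transcript, was by far the most abundant of the 6 and had the clearest rise. Its level was 1643 and 1638 CPM in the 2-D libraries and 2168 and 2073 CPM in the 3-D libraries. Both 3-D values lay above both 2-D values, and the replicates differed by far less than the conditions. The means were 1640.2 ± 3.52 and 2121 ± 67.4 CPM (n = 2 each), a rise of 29.3% with a 95% interval of 23.3% to 35.5%. The log2 fold change was 0.37 (SE 0.03, edgeR quasi-likelihood, BH-adjusted p = 2.29e-05), and 15.4% of tested genes had a larger absolute change. ESRG (ENSG00000265992) lies on chromosome 3 from 54632122 to 54639857 (hg38, minus strand) with 4 exons and 3140 exonic bases.

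Per kilobase of exon ESRG reached 599 CPM, rank 3 among all tested lncRNAs by this measure and also by CPM. Exon lengths are from GENCODE release 44, a later release than the one used for counting. Values, ranks and orders per kilobase are therefore approximate, for the other lncRNAs too. The gene sits inside CACNA2D3, a calcium channel subunit gene on the opposite strand, without sharing exonic bases with it. CACNA2D3 had 6.99 ± 0.0287 CPM in 2-D and 6.18 ± 0.616 in 3-D (n = 2 each), a log2 fold change of −0.17 that was not called, so the surrounding gene was far lower than ESRG. HERVH copies are scattered over the genome, and of 120 stretches of 150 bases tiled over the ESRG transcript, 48 (40%) were also placed elsewhere in hg38 with at most 3 differences. Of the LINC00678 stretches 1 of 26 was placed elsewhere, and of the other 4 lncRNAs 0 of 20 to 99 per gene. A single transcript per gene was tiled, which covers nearly all exonic bases of ESRG and LNCPRESS1 but 625 of 2325 in MIR302CHG, 1500 of 18665 in LINC00458, 2600 of 3891 in LINC-ROR and 775 of 1165 in LINC00678, so that repeats in their other exons were not tested. How the counting treated fragments with several placements is not given in the sources used here, so part of the ESRG count is uncertain, and its part in the change was not tested.

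LINC-ROR, the other HERVH-derived transcript, differed little. Its level was 113 and 116 CPM in 2-D and 122 in each 3-D library. The 3-D libraries were nearly equal and lay above both 2-D libraries. The means were 115 ± 1.56 and 122 ± 0.573 CPM (n = 2 each) and the log2 fold change 0.09 (SE 0.03, edgeR quasi-likelihood, BH-adjusted p = 0.0865), which was not called. Its 95% interval ran from 0.03 to 0.16 before adjustment for the number of genes. LINC-ROR (ENSG00000258609) lies on chromosome 18 from 57054558 to 57072119 (hg38, minus strand) with 10 merged exons, and with 30.4 CPM per kilobase it was far below ESRG. No gene of the annotation overlaps it. The nearest tested genes, the lncRNA ENSG00000286777 at 6.87 kb and BOD1L2 at 75.0 kb, were under 1 CPM in every library.

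LINC00458, the SMAD2 and SMAD3 binding transcript, rose slightly. It had 135 and 131 CPM in 2-D and 148 and 142 CPM in 3-D, without overlap. The means were 133 ± 2.70 and 145 ± 4.90 CPM (n = 2 each), a rise of 9.37% with a 95% interval of 4.06% to 15.0%. The log2 fold change was 0.13 (SE 0.03, edgeR quasi-likelihood, BH-adjusted p = 0.0316). The call rests on the model and on single libraries, since it was lost with DESeq2 (adjusted p = 0.162), when only library size was scaled (log2 fold change 0.06, edgeR quasi-likelihood adjusted p = 0.251) and when 2-D replicate 1, 2-D replicate 2 or 3-D replicate 1 was left out (adjusted p = 0.0679, 0.312 and 0.0524).

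LINC00458 (ENSG00000234787) is the longest of the 6 loci, on chromosome 13 from 53950255 to 54270397 (hg38, minus strand), with 32 merged exons and 18665 exonic bases. Per kilobase it had 7.44 CPM, the lowest of the 6, so that its rank among tested lncRNAs was 38 by CPM and 666 per kilobase. Its exon length merges 16 transcripts of the later release, and not all of them may have been counted. The rank per kilobase is therefore uncertain. Of its exonic bases 376 are shared with the pseudogene ENSG00000271652 on the other strand, which had 1.99 CPM in 2-D and 1.75 in 3-D and was not called. Its nearest tested neighbours were PCDH8, at 1102 kb, and MIR1297, at 41.6 kb. Neither was called, and PCDH8, a protocadherin gene, had 2.94 and 2.47 CPM in 2-D and 3-D.

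LINC00678 had 82.6 and 81.3 CPM in 2-D and 90.6 and 84.9 CPM in 3-D. The 3-D libraries lay above the 2-D libraries, but differed from each other by more than the lower of them differed from the higher 2-D library. The means were 82.0 ± 0.890 and 87.7 ± 4.03 CPM (n = 2 each) and the log2 fold change 0.10 (SE 0.04, edgeR quasi-likelihood, BH-adjusted p = 0.146), which was not called. Without 3-D replicate 2 it was 0.15 and was called (edgeR quasi-likelihood adjusted p = 0.0153). LINC00678 (ENSG00000254934) lies on chromosome 11 from 27617626 to 27634627 (hg38, minus strand), with 4 exons, inside BDNF-AS on the opposite strand with which it shares no exonic base. BDNF-AS, the antisense transcript of the neurotrophin gene BDNF, had 6.42 ± 0.537 and 6.90 ± 0.290 CPM (n = 2 each), and BDNF itself, 20.3 kb away, had 5.15 and 4.98 CPM in 2-D and 3-D. Neither was called.

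LNCPRESS1, the SIRT6-binding transcript, had 72.6 and 69.7 CPM in 2-D and 75.9 and 72.1 CPM in 3-D. The conditions overlapped. The means were 71.2 ± 2.04 and 74.0 ± 2.64 CPM (n = 2 each) and the log2 fold change was 0.06 (SE 0.04, edgeR quasi-likelihood, BH-adjusted p = 0.473), with a 95% interval of −0.03 to 0.14 and a value of −0.0082 when only library size was scaled. The interval reaches from a fall of 2.07% to a rise of 10.4%. LNCPRESS1 (ENSG00000232301) lies on chromosome 7 from 101299558 to 101301346 (hg38, plus strand), with 2 merged exons and 887 exonic bases. At 6.92 kb from it lies EMSLR, a lncRNA gene which fell from 49.8 and 50.2 CPM in 2-D to 40.9 and 39.4 CPM in 3-D (log2 fold change −0.32, SE 0.05, edgeR quasi-likelihood, BH-adjusted p = 0.00186). FIS1, a mitochondrial fission gene at 47.2 kb on the other side, had a log2 fold change of −0.14 (SE 0.08) and was not called.

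MIR302CHG was the only one of the 6 that fell. It had 292 and 291 CPM in 2-D and 216 and 187 CPM in 3-D. Both 3-D libraries lay far below both 2-D libraries, and they also differed from each other, by 1.15 times, whereas the 2-D libraries were nearly equal. The means were 292 ± 0.770 and 201 ± 20 CPM (n = 2 each), a ratio of 0.691 with a 95% interval of 0.641 to 0.745. The log2 fold change was −0.53 (SE 0.05, edgeR quasi-likelihood, BH-adjusted p = 5.00e-05), and 8.07% of tested genes had a larger absolute change. Leaving out 3-D replicate 1 gave −0.64 and leaving out 3-D replicate 2 gave −0.43, both called. With 106 CPM per kilobase it ranked 42 among the tested lncRNAs.

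**Figure D2:**
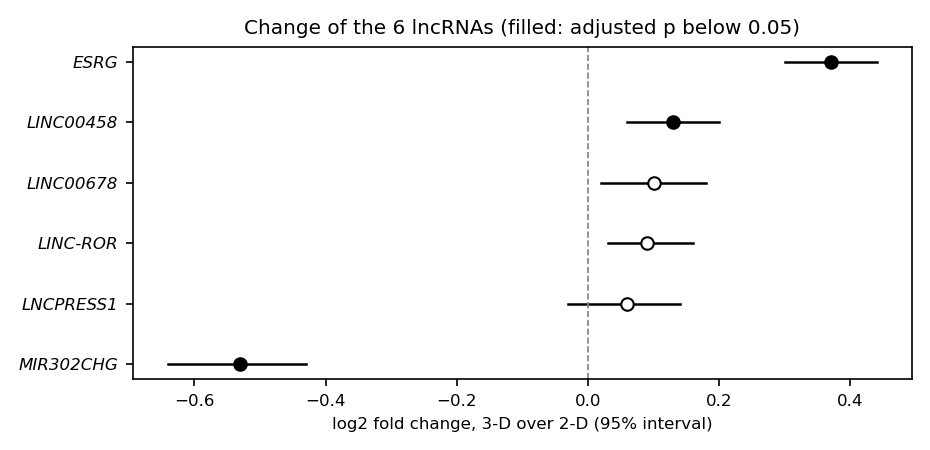
Log2 ratio of 3-D over 2-D (x axis) for the 6 lncRNAs, with 95% intervals as bars and filled points for genes called at an adjusted p below 0.05. ESRG at 0.37 and MIR302CHG at −0.53 stand apart, and the intervals of the other 4 overlap one another.

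MIR302CHG (ENSG00000249532) lies on chromosome 4 from 112646476 to 112650051 (hg38, minus strand) inside LARP7, the gene of a protein that stabilizes the 7SK RNA, on the opposite strand. Of its 2325 exonic bases 1318 are also exonic in LARP7 in the annotation used here. LARP7 fell as well, from 399 CPM in each 2-D library to 322 and 279 CPM in 3-D. Its log2 fold change was −0.41 (SE 0.05, edgeR quasi-likelihood, BH-adjusted p = 0.000454). In both genes 3-D replicate 2 was the lowest library. The ratio of MIR302CHG to LARP7 was 0.732 and 0.729 in 2-D and 0.669 and 0.672 in 3-D. The strand setting of the counting is not given in the sources used here, so the parts of both genes in the shared bases cannot be told apart. ZGRF1, the nearest tested gene on one side at 9.48 kb, had 83.5 and 83.2 CPM in 2-D and 3-D and a log2 fold change of −0.01.

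The microRNA precursors inside MIR302CHG did not all move with it. They are short hairpin regions with few counts. MIR302A had 11.3 and 11.6 CPM in 2-D and 14.4 and 15.2 CPM in 3-D, and rose by a log2 fold change of 0.37 (SE 0.09, edgeR quasi-likelihood, BH-adjusted p = 0.0197), a call that was lost with DESeq2 (adjusted p = 0.152) and without either 2-D replicate. MIR302C had 11.1 CPM in each 2-D library and 12.4 and 12 CPM in 3-D and was not called. MIR302D had 6.71 and 6.49 CPM in 2-D and 6.08 and 6.64 CPM in 3-D and overlapped. MIR367 had 8.62 and 7.72 CPM in 2-D and 6.81 and 6.47 CPM in 3-D, a log2 fold change of −0.30 (SE 0.12, edgeR quasi-likelihood, BH-adjusted p = 0.149). MIR302B had 2, 0, 1 and 0 counts and was not tested. How fragments within both a precursor and its host were assigned is not given in the sources used here, and its part in these values was not tested.

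**Figure D3:**
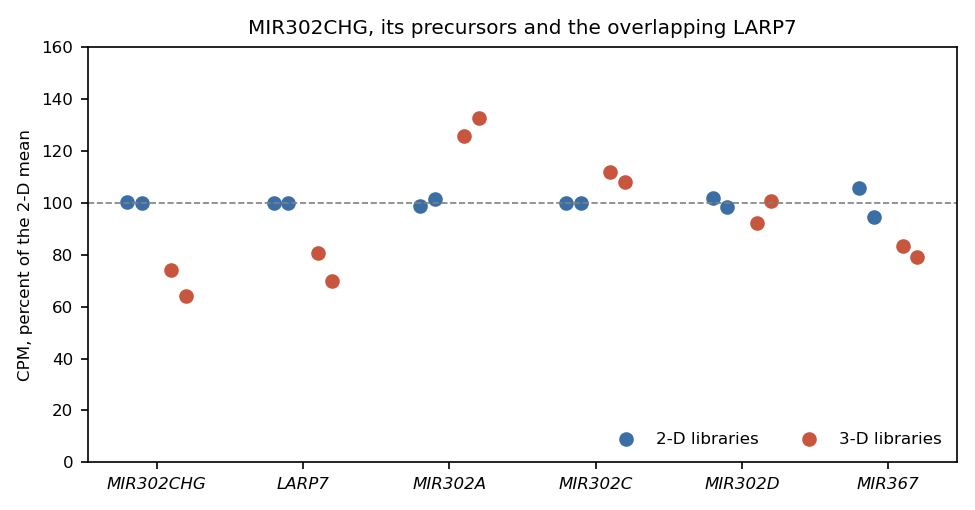
CPM in percent of the 2-D mean (y axis, from 0) for MIR302CHG, the overlapping LARP7 and 4 microRNA precursors, with 2-D libraries in blue and 3-D libraries in red. Both 3-D points of MIR302CHG and LARP7 lie below 100%, and those of MIR302A and MIR302C lie above it. For MIR302D the lower 3-D point lies below both 2-D points and the higher lies between them.

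Summed over the 6 genes, the lncRNAs had 2338 and 2326 CPM in 2-D and 2820.4 and 2681 CPM in 3-D. ESRG made up 70.3% and 70.4% of that sum in 2-D and 76.9% and 77.3% in 3-D. Without ESRG the sum was 695 and 688 CPM in 2-D and 652 and 608 CPM in 3-D, so that the direction of the sum was set by ESRG. The order of the levels by CPM was the same in all libraries, from ESRG through MIR302CHG, LINC00458, LINC-ROR and LINC00678 to LNCPRESS1. Per kilobase of exon it was ESRG, MIR302CHG, LNCPRESS1, LINC00678, LINC-ROR and LINC00458 by the mean over the libraries, and in 3-D replicate 2 MIR302CHG (80.5 CPM per kilobase) and LNCPRESS1 (81.3) did not differ beyond the spread of the 3-D replicates.

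**Figure D4:**
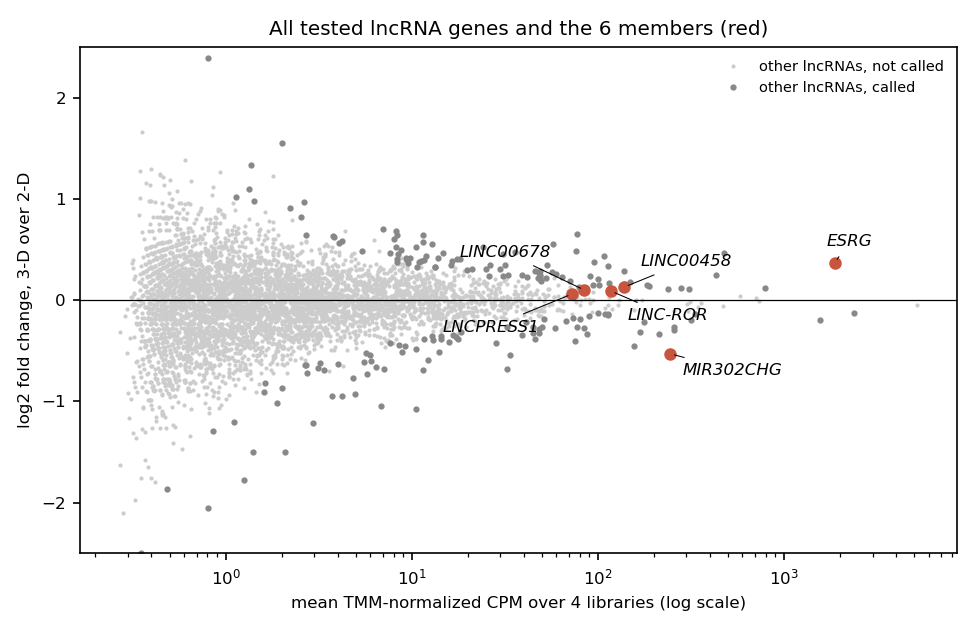
Mean TMM-normalized CPM over the 4 libraries (x axis, log scale) against log2 fold change of 3-D over 2-D (y axis) for the tested lncRNA genes, with called genes in dark grey, others in light grey and the 6 lncRNAs in red. The 6 lie among the abundant lncRNAs, ESRG near the right edge, and 8 lncRNAs beyond 2.5 in absolute value are off the plot.

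Among 3233 tested lncRNA genes with a mean of at least 1 CPM, the profiles over the 4 libraries closest to each of the 6 were sought by the Euclidean distance of centred log2 CPM, a description over 4 libraries that says nothing of shared function. For ESRG it was LIX1L-AS1 (distance 0.0326), an antisense transcript with 27.9, 27.8, 35.9 and 35.1 CPM, followed by ENSG00000268087 (0.0406). For MIR302CHG it was ENSG00000263624 (0.0213) and ENSG00000244380 (0.0230), the latter with 40.5, 39.5, 29.5 and 25.4 CPM. The closest named genes to LNCPRESS1 and LINC00678 were TMEM147-AS1 (0.0184) and GARS1-DT (0.0125), each in second place after ENSG00000271984 (0.0180) and ENSG00000287496 (0.0104). LINC-ROR was closest to ENSG00000287061 (0.00924) and ENSG00000246792 (0.0190), and LINC00458 to ENSG00000273192 (0.0146) and ENSG00000273212 (0.0190).

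Because ESRG and LINC-ROR derive from HERVH, other genes whose transcripts use HERVH repeats in ESCs were listed. All 5 were tested, and 3 were called higher in 3-D and 0 lower, beside 4.54% called higher of all tested genes. The list was chosen with earlier results of these data known, so this count by itself is no result about HERVH. SCGB3A2, a secretoglobin gene, had 31.7 and 34.2 CPM in 2-D and 45.8 and 45.7 CPM in 3-D (log2 fold change 0.47, SE 0.06, edgeR quasi-likelihood, BH-adjusted p = 0.000392). ABHD12B, a hydrolase gene, had 351 and 357 CPM in 2-D and 441 and 419.8 CPM in 3-D (log2 fold change 0.28, SE 0.03, edgeR quasi-likelihood, BH-adjusted p = 0.000276). HHLA1 had 282 and 284 CPM in 2-D and 312 and 308 CPM in 3-D (log2 fold change 0.13, SE 0.03, edgeR quasi-likelihood, BH-adjusted p = 0.0165), a call that was lost in 4 of 13 alternatives. The lncRNA LINC01108 had 363 and 362 CPM in 2-D and 359 and 351 CPM in 3-D, a log2 fold change of −0.03 that was not called, and LINC00545 was near 1 CPM. The median of the 5 was 0.13. When only library size was scaled it was 0.07, with 2 called higher and 0 lower. Placement of their sequence elsewhere in the genome was not tested.

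Genes reported to regulate these lncRNAs or to be bound by them were listed as partners. Of 11 listed, 1 was called higher and 0 lower, a share near the 7.90% called of all tested genes, with a median log2 fold change of 0.04 (−0.02 when only library size was scaled). HNRNPA1, an RNA-binding protein reported to bind LINC-ROR, rose from 1737 and 1746 CPM to 2022 and 1971 CPM (log2 fold change 0.20, SE 0.03, edgeR quasi-likelihood, BH-adjusted p = 0.00149). HNRNPA1 has many processed pseudogenes, so its count is uncertain. PTBP1 (hnRNP I), another reported partner of LINC-ROR, had 509 and 505 CPM in 2-D and 513 and 556 CPM in 3-D and was not called. MCM2, the partner of ESRG, had a log2 fold change of −0.03 (SE 0.03) and SIRT6, the partner of LNCPRESS1, of 0.14 (SE 0.11), and neither was called. SMAD2 and SMAD3, the partners of LINC00458, had −0.04 (SE 0.03) and 0.02 (SE 0.04) and were not called either.

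Of 16 core pluripotency factors, 2 were called higher and 0 lower, beside 4.54% and 3.36% of all tested genes, with a median of 0.04. When only library size was scaled, 2 were called higher and 3 lower with a median of −0.02, and without mitochondrially encoded genes 3 higher and 1 lower. In the reported test 9 of the 16 had an unadjusted p below 0.05, with DPPA4, PRDM14 and TRIM71 lower and the others higher in 3-D. The share of all tested genes below that p is not given here, so this count by itself is no result about the factors. L1TD1, an RNA-binding protein of ESCs, rose from 996 and 994 CPM to 1175 and 1135 CPM (log2 fold change 0.21, SE 0.03, edgeR quasi-likelihood, BH-adjusted p = 0.00111). DNMT3B, a de novo DNA methyltransferase, rose from 1050.0 and 1052 CPM to 1164 and 1203 CPM (log2 fold change 0.17, SE 0.03, edgeR quasi-likelihood, BH-adjusted p = 0.00429). POU5F1, which encodes OCT4, had 116 and 117 CPM in 2-D and 109 and 132 CPM in 3-D, so that the 2-D values lay between the 3-D values, and it too has pseudogenes that could share its fragments. SOX2 had a log2 fold change of 0.14 (SE 0.05) and NANOG of 0.08 (SE 0.03), with edgeR quasi-likelihood adjusted p of 0.153 and 0.173. The abundant RNA-binding protein LIN28A, which blocks let-7 maturation, had 0.00 (SE 0.03).

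Reported targets of the miR-302 family were looked at because the host transcript was lower. Of 17 listed, 16 were tested, with 2 called higher, 1 called lower and a median of 0.02, beside 4.54% and 3.36% called of all tested genes. When only library size was scaled, 0 were called higher and 2 lower, with a median of −0.05. NR2F2, a differentiation factor, had 10, 7, 10 and 4 counts and was not tested. LEFTY1, an inhibitor of Nodal signalling, was lower, with 33.4 and 33.8 CPM in 2-D and 26.2 and 24.7 CPM in 3-D (log2 fold change −0.40, SE 0.06, edgeR quasi-likelihood, BH-adjusted p = 0.00217). Its near-identical paralog LEFTY2, between which and LEFTY1 the counting could have split fragments, had 80.6 and 83.3 CPM and was not called. SMARCC2, a BAF chromatin remodeling subunit, had a log2 fold change of 0.14 (SE 0.03, edgeR quasi-likelihood, BH-adjusted p = 0.0155), a call that was lost in 5 of 13 alternatives. The most abundant of the targets, CCND1 (cyclin D1), had 877 and 904 CPM and was not called.

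A single match to the miR-302 seed, AGCACTT on the transcript strand, is shown for LEFTY1 and SMARCC2 with 11 flanking bases on each side and the match in capitals (hg38, minus strand).
LEFTY1, chr1:225886462-225886490: actatattctaAGCACTTacatgtggaga
SMARCC2, chr12:56162771-56162799: ttgttttttaaAGCACTTaagcacctcca
The match occurred in the 3′ UTR of 12 of the 17 listed targets and of 4118 of 19183 annotated transcripts (21.5%), and the targets were listed for having been reported, so that the higher share is no result. LEFTY1 and SMARCC2, with the same seed match, went in opposite directions.

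Among other lncRNAs studied in pluripotent or differentiating cells, all calls were lower in 3-D. Of 21 listed, 19 were tested, 0 were called higher and 4 lower, beside 3.36% called lower of all tested genes, with a median log2 fold change of −0.05. This list too was chosen with earlier results of these data known, so the count by itself is no result. TUNAR and TINCR, both tested and not called, are protein-coding genes in the annotation used here and lie outside the tested lncRNA genes. GAS5, a host of small nucleolar RNAs, fell from 283 and 279.7 CPM to 244 and 227 CPM (log2 fold change −0.26, SE 0.04, edgeR quasi-likelihood, BH-adjusted p = 0.00100). NEAT1, the scaffold of paraspeckles, fell from 1677 and 1690.0 CPM to 1454 and 1481 CPM (log2 fold change −0.20, SE 0.03, edgeR quasi-likelihood, BH-adjusted p = 0.00134). OIP5-AS1 (−0.20, SE 0.03) and SNHG14 (−0.13, SE 0.03) were also called lower (edgeR quasi-likelihood, BH-adjusted p = 0.00296 and 0.0198), the latter call being lost in 2 of 13 alternatives. OIP5-AS1 is an antisense gene, and without the strand setting its reads and those of its partner cannot be told apart. MALAT1, the most abundant of them with 5302 and 5121 CPM, and MEG3, an imprinted transcript with 577 and 594 CPM, were not called.

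The labelled cell type was checked against markers. All 16 core factors passed the filter on low counts. Of 13 naive markers 9 were tested, and defining ones were low or absent, with KLF17 at 0.465 to 1.07 CPM, DPPA5 at 0 to 4 counts, ZNF729 at 0 counts in every library and NLRP7 at 0 or 1 count, whereas all 13 primed markers were tested and summed to between 2302 and 2422 CPM. Other naive markers were present, such as TFCP2L1 (23.0 and 22.2 CPM in 2-D and 3-D) and DNMT3L (17.0 and 16.2 CPM). KLF4, KLF5, DPPA3, SUSD2 and TBX3 were present too, at condition means of 6.35 to 56.7 CPM. The defining markers named above were thus nearly absent in both conditions despite the naïve label, and others were not. The naïve state itself was not tested. By quantitative PCR, the study reported that core and naïve markers rose in the scaffolds. In these libraries KLF17, KLF4, TFCP2L1, DPPA3 and DNMT3L were not called, nor were POU5F1, SOX2 and NANOG. The reason for this difference was not tested. KLF5 of the naive markers and SFRP2, SALL2 and THY1 of the primed markers were called higher in 3-D, and 0 of either list lower, though 1 primed marker was called lower when only library size was scaled. Markers of endoderm (5 of 9 tested, summed level 10.5 to 12.2 CPM), mesoderm (7 of 9, 215 to 230.0 CPM), neural ectoderm (6 of 9, 597 to 627 CPM) and trophoblast and amnion (7 of 12, 112 to 119 CPM) had 0 calls by edgeR's quasi-likelihood test, with 1, 3, 2 and 1 genes at an unadjusted p below 0.05, and 1 endoderm marker, GATA6, was called higher when mitochondrially encoded genes were left out. Among 9 fibroblast markers 7 were tested and COL1A1, COL3A1 and POSTN were called higher in 3-D and 0 lower, with a summed level of 473 and 465 CPM in 2-D and 475 and 518 CPM in 3-D and with DCN and LUM at 2 to 17 counts. POSTN lost its call without 3-D replicate 2. COL1A2, the most abundant of them, had a log2 fold change of −0.04 (SE 0.04) and was not called, and S100A4 had −0.74 (SE 0.21, edgeR quasi-likelihood, BH-adjusted p = 0.0534). When only library size was scaled, or mitochondrially encoded genes were left out, S100A4 was called lower. Their part in the lncRNA results was not tested.

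**Figure D5:**
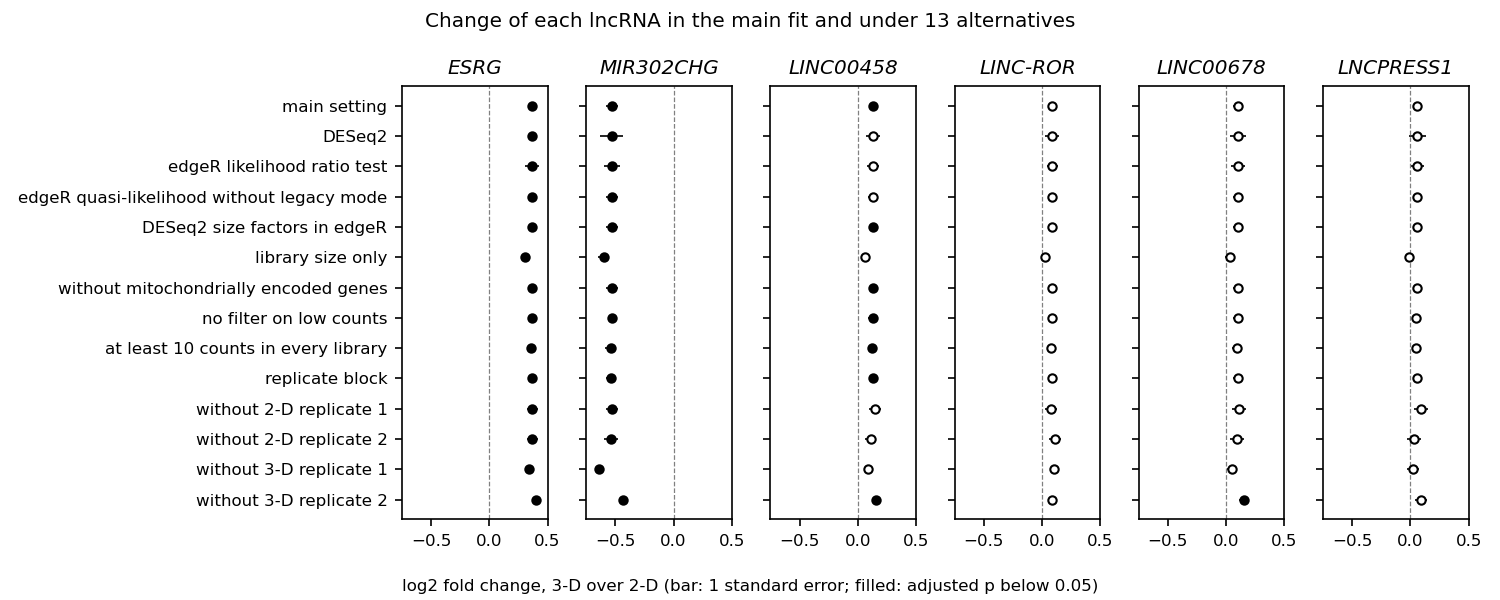
Log2 fold change of 3-D over 2-D (x axis, bars of 1 SE) of each lncRNA in the main fit and under 13 alternatives (rows), with filled points for an adjusted p below 0.05. ESRG stayed between 0.31 and 0.40 and MIR302CHG between −0.64 and −0.43 with filled points throughout, while LINC00458 lay between 0.06 and 0.16 with filled and open points.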

How the data were processed

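Counts of RNA fragments per gene were deposited for 4 libraries, 2 of 2-D and 2 of 3-D grown Elf1 cells, grouped by the submitters' labels. The authors trimmed paired-end reads with Trim Galore 0.6.3, mapped them to hg38 with HISAT2 2.1.0 and counted them on GENCODE genes with featureCounts 1.6.4, without normalization or pooling of replicates. A deposited table of counts divided by DESeq2 size factors, with the authors' fold changes, standard errors, Wald statistics, p-values and adjusted p-values, was not used. Of 60564 identifiers, 60295 matched GENCODE release 44, a later release than the one used for counting, and the 269 others held 0.122% of counts. Counts were tested with edgeR 4.0.16 in R 4.3.3 (TMM, filterByExpr, quasi-likelihood in legacy mode, condition alone, all 4 libraries, Benjamini-Hochberg over 22555 genes), which was tested on simulated data first. Intervals of 95% use the t distribution on the fit's degrees of freedom and are not adjusted over genes. Between libraries of a condition counts, scaled by totals alone, differed beyond sampling noise (chi-square over degrees of freedom 2.45 in 2-D and 4.39 in 3-D). Library preparation can also give such a difference, so this does not show separate cultures. Each library was kept as a replicate because the study describes independent biological replicates. The smallest count of a listed lncRNA, 1293, has a counting error of 2.78%.

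The 6 lncRNAs and all gene lists were chosen with earlier results of these data known. Named genes are the 6, the called and up to 3 of the most abundant uncalled genes of each list. They also include the nearest and overlapping genes and the 2 lncRNAs most alike in profile. Other list genes are named for their reported role or their change, after their values were seen. Alternatives were DESeq2 1.42.0, the likelihood ratio test, quasi-likelihood without legacy mode, DESeq2 size factors, library size only, leaving out mitochondrially encoded genes, no filter on low counts, a minimum of 10 counts per library, a replicate block, and leaving out each library. Transcripts were tiled at 150 bases in steps of 25 and placed with minimap2 2.31-r1302. Promoters and microRNAs are from RefSeq (GRCh38.p14), where 2 of the 6 lncRNAs had a promoter. Some genes of the lists are counted but not reported by name here.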

Additional observations from a re-analysis of the deposited data

How the results depend on the processing

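ESRG and MIR302CHG were called in the same direction under all 9 alternatives that keep every library (log2 fold changes 0.31 to 0.37 and −0.60 to −0.53) and with each library left out in turn (0.34 to 0.40 and −0.64 to −0.43). With library size only LINC-ROR and LINC00678 became 0.03 each and LNCPRESS1 became −0.0082. LNCPRESS1 ranged from 0.02 to 0.09 with a library left out. LINC00678 ranged from 0.05 to 0.15 and LINC-ROR from 0.08 to 0.11 in the same way, and LINC00678 was called only at 0.15, without 3-D replicate 2. LINC00458 lost its call with DESeq2, the likelihood ratio test and quasi-likelihood without legacy mode (0.13 each, adjusted p = 0.162, 0.145 and 0.0545) and with library size only (0.06), and ranged from 0.09 to 0.16 with a library left out. The core factors called, 2 by the reported test, became 4 with DESeq2 and without mitochondrially encoded genes, 1 with the likelihood ratio test, 5 without legacy mode, with library size only and with the replicate block, 7 without a filter and 2 to 9 with a library left out. The called miR-302 targets, 3, became 1 with DESeq2 or the likelihood ratio test and 1 to 5 with a library left out. The called partners, 1, became 2 without a filter and with the replicate block and 1 to 3 with a library left out. With 1 library in a condition, it is assumed to vary like the other condition. The replicate numbers gave no sign of paired libraries over all tested genes (correlation of deviations −0.00792). With 2 libraries per condition the other numbering gives the mirror value, 0.00792, so this cannot exclude a pairing. The replicate block changed no call of the 6, but calls over all genes rose from 1782 to 2167. Over all genes 1782 calls became 795 of 10299 with DESeq2, 1139 with the likelihood ratio test, 514 higher and 1879 lower with library size only, where the median of all genes shifted to −0.065, and 974 to 2643 with a library left out. The causes were not tested.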
